A study of Mus musculus with 11 samples.

Results

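Superoxide and hydrogen peroxide are removed by enzymes that act in series. The superoxide dismutases turn superoxide into hydrogen peroxide, and catalase and the glutathione peroxidases reduce the peroxide. The classical glutathione peroxidases draw their electrons from glutathione, which glutathione reductase then regenerates, whereas GPX7 and GPX8 work mainly with protein disulfide isomerases. In the gut the family includes GPX2, an enzyme known mainly from the gastrointestinal epithelium. Colonic RNA was examined for 10 genes of this system, chosen by name from the 43346 genes of the count table: the glutathione peroxidases Gpx1, Gpx2, Gpx3, Gpx4, Gpx7 and Gpx8, the dismutases Sod1, Sod2 and Sod3, and the catalase gene Cat. All 10 passed the low-count filter, which kept 19863 genes. Gpx5 and Gpx6, the other glutathione peroxidase genes of the table, had 0 reads in every mouse.

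The study asked how gut microbes change gene expression in the colon. It compared 5 germ-free with 6 humanized mice, all male Swiss Webster animals aged 8 to 10 weeks. Humanized mice came from the germ-free colony and were gavaged with 300 μL of stool suspension at 4 to 5 weeks, then left for 4 to 5 weeks. The stool of 1 healthy person was used, so the humanized group stands for 1 donor community. No gavage of the germ-free mice is described in the sources used here, so gavage and microbes cannot be told apart. Each library is 1 mouse, and no sequencing batch is named. Total gene counts were 49097005 to 64148538 in the germ-free and 39125290 to 54219854 in the humanized mice, and the 10 genes together took 0.0843 to 0.0976% of them. Levels are RPKM, read counts scaled to gene length and to TMM-normalized library size, and means are given ± SD (n = 5 germ-free, n = 6 humanized). Log2-fold changes (LFC) are humanized over germ-free, the call was FDR below 0.01 in edgeR's exact test over all tested genes, and standard errors (SE) and 95% intervals come from edgeR's quasi-likelihood fit.

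The samples are colonic tissue and hold several cell types. The sum of 13 epithelial markers was 9899 to 13122 CPM (counts scaled to TMM-normalized library size, without gene length) in the germ-free group and 11296 to 15618 CPM in the humanized group. All 13 had an LFC above 0 (median 0.21), and 3 passed the test, Krt18, Elf3 and Lgals4. Markers of the wall moved with the groups, and in tissue RNA fewer cells of a type and less RNA per cell cannot be told apart. All 9 smooth muscle markers were lower in humanized mice (median LFC −1.79), with sums of 585 to 1777 against 78.2 to 622 CPM. Of 7 fibroblast markers 5 were lower (median LFC −1.34), with sums of 346 to 604 against 49.9 to 315 CPM. None of 6 endothelial markers passed the test (median LFC −0.95), and their sums were 97.2 to 115 against 13.6 to 89.6 CPM. All 5 enteric neuron and glia markers were lower (median LFC −2.00), and 1 of 6 tested macrophage markers was lower. Plasma cell markers were higher for 3 of 4 genes, T cell markers for 4 of 5 and B cell markers for 1 of 4. None of 5 erythroid markers and of the 1 adipocyte marker tested was called. Humanized mouse 5 stood apart, with the lowest sums of smooth muscle, fibroblast and endothelial markers, and the LFC values of Gpx2, Gpx3, Gpx4, Gpx8, Sod1 and Sod3 are given with and without it. Without it the sums of the humanized mice began at 149 CPM for smooth muscle, 154 for fibroblast and 40.4 for endothelial markers.

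The glutathione peroxidases differ at their active site, and this difference separates the genes before any expression is considered. Gpx1 to Gpx4 encode selenoproteins, in which an in-frame TGA is read as selenocysteine. At the same place Gpx7 and Gpx8 hold a cysteine codon and have no in-frame TGA. The coding sequences around that codon are shown 5′ to 3′ on the gene's strand, with 15 bases on either side and the codon in capitals. They were read from GENCODE transcripts of GRCm38 (mm10), and for Gpx7 and Gpx8 the codon is the one aligned with the TGA of Gpx1.
Gpx1: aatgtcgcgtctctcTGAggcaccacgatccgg
Gpx2: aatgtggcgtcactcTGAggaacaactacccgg
Gpx3: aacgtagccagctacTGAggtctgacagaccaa
Gpx4: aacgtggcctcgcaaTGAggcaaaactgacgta
Gpx7: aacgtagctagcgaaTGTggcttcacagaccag
Gpx8: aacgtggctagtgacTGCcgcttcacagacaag

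These codons lie in exon 1 of Gpx1 (codon 47 of 201, chr9:108339451-108339453, plus strand) and of Gpx2 (codon 40 of 190, chr12:76795256-76795258, minus strand). In Gpx3 the codon is in exon 2 (73 of 226, chr11:54907256-54907258, plus strand), and in Gpx4 in exon 3 (73 of 197, chr10:80054737-80054739, plus strand). In Gpx7 it is in exon 2 (56 of 186, chr4:108403430-108403432, minus strand), as in Gpx8 (79 of 209, chr13:113045661-113045663, minus strand). The differences below did not follow this division: the genes with TGA included one that was higher and one that was lower in humanized mice, and of the pair with a cysteine codon one was lower and one was not called.

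Of the 10 genes, 2 were upregulated in humanized mice (Gpx2 and Sod1), 3 were downregulated (Gpx3, Gpx8 and Sod3), and 5 did not pass the test. Among all tested genes 9.20% were higher and 10.1% lower by the same call. The groups did not overlap for 3 of the 10 genes, higher for Gpx2 and Sod1 and lower for Gpx3, where 8.67% of all tested genes were separated upward and 9.73% downward. The median LFC of the 10 was 0.17, against 0.0084 over all tested genes. The edgeR quasi-likelihood test called only Gpx2 (FDR 0.00272) and Gpx3 (FDR 0.00890) among them.

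**Figure D1:**
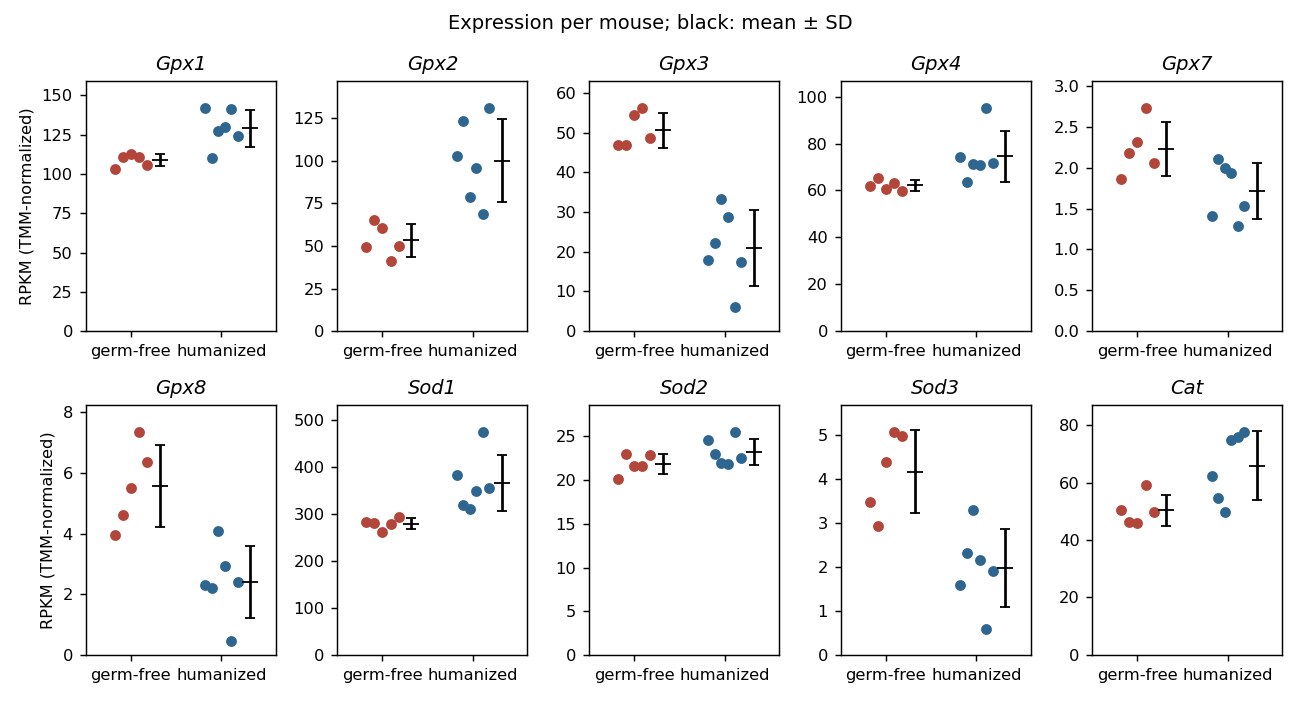
Level of each gene in every mouse, in TMM-normalized RPKM on linear axes that start at 0. Points are the 5 germ-free (red) and 6 humanized (blue) mice, and black bars are mean ± SD; Gpx2 and Sod1 are higher and Gpx3 is lower in humanized mice without overlap.

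Gpx2 (chr12:76792335-76795554), the peroxidase of the gut epithelium, had the most significant difference of the 10 genes. Its levels in the 5 germ-free mice were 49.5, 65.5, 60.6, 41.4 and 49.7 RPKM. In the humanized mice they ran from 68.8 through a median of 99.2 to 131 RPKM. Every humanized mouse was above every germ-free mouse, although the lowest was only slightly above the highest germ-free value. The means were 53.4 ± 9.63 and 100.04 ± 24.4 RPKM, an LFC of 0.91 (SE 0.17, 95% interval 0.54 to 1.28, FDR = 6.13e-06). The call held under all 22 alternatives at FDR below 0.01, with an LFC of 0.67 to 0.99, the latter without humanized mouse 5 (FDR = 1.06e-08). Per unit of summed epithelial markers (1000 times RPKM over CPM) Gpx2 stood at 4.60 ± 0.826 in germ-free and 7.29 ± 1.78 in humanized mice, a ratio of 1.58, and the groups overlapped on this scale. Only humanized mouse 5 lay in the germ-free range, and without it the ratio was 1.71 and the groups were apart.

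A processed copy, Gpx2-ps1 (chr7:100264944-100265246), had 69 to 239 reads per mouse, 2.40 to 3.41% of those of Gpx2. Its LFC was 1.08 (SE 0.23, FDR = 3.33e-04). Reads can be split between the 2 loci in ways that the counts do not show, so the value of the copy is uncertain. With its reads added to Gpx2 the LFC of Gpx2 remained 0.91. Gpx2 also lies within the span of Fntb, with which it shares no exon base in the GENCODE annotation. Fntb had an LFC of 0.00 (FDR = 0.985). Gpx8 lies likewise within the span of Cdc20b, which had 0 reads in every mouse.

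Gpx1 (chr9:108338903-108340343), the widely expressed enzyme of the cytosol and mitochondria, had the highest mean level of the glutathione peroxidases in both groups. Germ-free mice had 103, 111, 113, 111 and 106 RPKM, and humanized mice 110 to 142 with a median of 128 RPKM. The lowest humanized mouse, mouse 2, lay inside the germ-free range. With means of 109 ± 3.91 and 129 ± 11.9 RPKM the LFC was 0.25 (SE 0.07, 95% interval 0.10 to 0.39) and the FDR of 0.0114 missed the call. It passed without humanized mouse 2 (FDR = 8.23e-04) and in DESeq2 (FDR = 0.00425), the only 2 of the 22 alternatives at FDR below 0.01 in which it did. The main fit called it at FDR below 0.05.

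Gpx4 (chr10:80047166-80056439) encodes the peroxidase that acts on lipid hydroperoxides in membranes. Its germ-free values were 61.8, 65.5, 60.8, 63.4 and 59.7 RPKM, and the humanized values 63.8 to 95.2 with a median of 71.5 RPKM. The upper end was mouse 5 alone, with the next mouse at 74.3 RPKM, and mouse 2 lay within the germ-free range. The means of 62.2 ± 2.26 and 74.5 ± 10.7 RPKM gave an LFC of 0.26 (SE 0.09, 95% interval 0.07 to 0.45, FDR = 0.0313), which was 0.18 (FDR = 0.0360) without mouse 5.

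Gpx3 (chr11:54902453-54910377), which encodes the secreted peroxidase of plasma and extracellular fluid, had the largest negative LFC of the 10 genes. Germ-free mice had 46.9, 46.8, 54.5, 56.2 and 48.6 RPKM, a narrow range. Humanized mice had 6.01 to 33.3 RPKM with a median of 20.1 RPKM, all below the germ-free mice. The means were 50.6 ± 4.44 and 21.0 ± 9.57 RPKM, an LFC of −1.27 (SE 0.30, 95% interval −1.93 to −0.61, FDR = 3.59e-04). Mouse 5 was the lowest, and without it the LFC was −1.08 (FDR = 3.79e-09).

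Gpx8 (chr13:113042763-113046388) encodes a membrane-bound peroxidase of the endoplasmic reticulum, and it also fell. Its germ-free levels were 3.95, 4.63, 5.49, 7.36 and 6.35 RPKM. Its humanized levels were 0.456 to 4.09 with a median of 2.35 RPKM, and humanized mouse 3 lay within the germ-free range. The means were 5.55 ± 1.35 and 2.40 ± 1.18 RPKM, with an LFC of −1.21 (SE 0.38, 95% interval −2.03 to −0.40, FDR = 0.00993). The gene had only 22 to 467 reads per mouse, and this call sat at the threshold. Of the 11 fits that left out 1 mouse, 2 called it, those without humanized mouse 3 (FDR = 0.00156) and without humanized mouse 5 (LFC −0.99, FDR = 2.33e-04). The FDR in the other 9 was 0.0107 to 0.0421: 0.0107, 0.0146, 0.0246, 0.0421 and 0.0313 without germ-free mice 1 to 5 in turn, and 0.0268, 0.0254, 0.0146 and 0.0222 without humanized mice 1, 2, 4 and 6.

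Gpx7 (chr4:108400390-108406961), which encodes another peroxidase of the endoplasmic reticulum, had the lowest mean level of the 10 genes in both groups. Germ-free mice had 1.86 to 2.73 RPKM and humanized mice 1.29 to 2.11 RPKM, and the groups overlapped. The LFC of −0.38 (SE 0.17, 95% interval −0.74 to −0.02, FDR = 0.145) did not pass the test.

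The make-up of the family differed between the groups. Summed over the 6 expressed genes, the level was 283 ± 13.1 RPKM in germ-free and 329 ± 13.9 RPKM in humanized mice. Gpx2 supplied 18.8 ± 2.80% of that sum in the germ-free and 30.3 ± 6.56% in the humanized mice, and the ranges of 14.7 to 22.2% and 22.003 to 38.1% just overlapped. Gpx3 supplied 17.9 ± 1.49% and 6.39 ± 3.03%, with ranges of 15.8 to 19.9% and 1.92 to 10.5% that did not meet. Gpx1 and Gpx4 kept similar mean shares, 38.5 ± 0.701% and 39.3 ± 4.03% for Gpx1 and 22.03 ± 0.962% and 22.8 ± 3.89% for Gpx4. Gpx8 made up 1.97 ± 0.490% and 0.729 ± 0.372%, and Gpx7 0.788 ± 0.107% and 0.523 ± 0.112%. These shares depend on dividing by length, and on CPM Gpx2 held 13.5% and 23.0%.

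**Figure D2:**
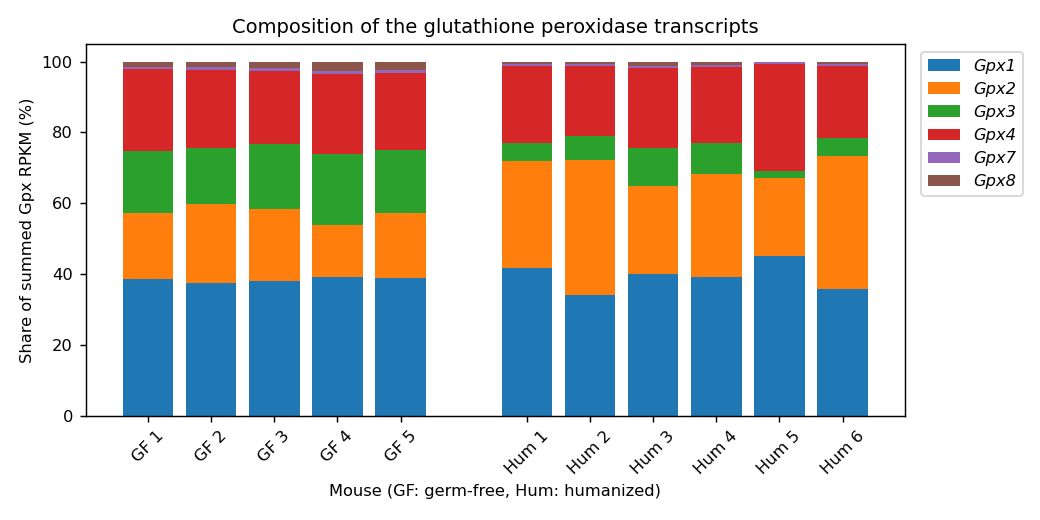
Share of each glutathione peroxidase gene in the summed Gpx RPKM of every mouse, in percent, 1 stacked bar per mouse. Gpx2 (orange) averages 18.8% in germ-free and 30.3% in humanized mice, and Gpx3 (green) 17.9% and 6.39%.

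Sod1 (chr16:90220742-90226322), the copper-zinc dismutase of the cytosol, was the most abundant of the 10 genes in both groups. The germ-free mice had 283, 282, 261, 278 and 295 RPKM, and the humanized mice 310 to 476 with a median of 352 RPKM. All humanized mice were above all germ-free mice. The means were 279.7 ± 12.2 and 366 ± 60.0 RPKM, with an LFC of 0.39 (SE 0.10, 95% interval 0.17 to 0.60, FDR = 0.00252). Mouse 5 was again the extreme, and the LFC without it was 0.29 (FDR = 0.00108). The call was lost without germ-free mouse 3 (FDR = 0.0161) or germ-free mouse 4 (FDR = 0.0109), and in the quasi-likelihood test (FDR = 0.0128).

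The call of Sod1 also depended on the scaling. Under total counts the LFC was 0.19 (FDR = 0.0969) and with libraries scaled to the epithelial markers it was 0.12 (FDR = 0.316). These scalings moved the median LFC of all genes to −0.18 and −0.24. Relative to that median Sod1 stood at 0.37 and 0.36, against 0.38 under TMM. Per unit of summed epithelial markers Sod1 was 24.2 ± 2.61 in germ-free and 26.4 ± 2.52 in humanized mice, a ratio of 1.09 with overlapping groups.

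Sod2 (chr17:13007839-13018119), the manganese dismutase of mitochondria, had the LFC nearest to 0 of the 10 genes. Its levels were 20.1, 23.0, 21.6, 21.6 and 22.9 RPKM in germ-free mice and 21.9 to 25.6 with a median of 22.8 RPKM in humanized mice. That LFC was 0.09 (SE 0.06, 95% interval −0.04 to 0.22, FDR = 0.397). Its sign turned under the total-count and epithelial scalings, to −0.10 and −0.16, neither of which passed the test. These scalings lowered all genes alike, and relative to the median of all genes Sod2 stood at 0.077 and 0.080, against 0.081 under TMM.

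Sod3 (chr5:52363946-52371405), the extracellular dismutase, fell. Germ-free mice had 3.47, 2.92, 4.39, 5.07 and 4.97 RPKM. Humanized mice had 0.590 to 3.29 with a median of 2.03 RPKM, and mouse 3 reached into the germ-free range. The means of 4.17 ± 0.944 and 1.97 ± 0.888 RPKM gave an LFC of −1.08 (SE 0.32, 95% interval −1.76 to −0.39, FDR = 0.00581). Without mouse 5 it was −0.89 (FDR = 3.14e-04). The call was kept in 5 of the 11 fits that left out 1 mouse. The FDR was 0.0190, 0.0265 and 0.0243 without germ-free mice 3, 4 and 5, and 0.0212, 0.0120 and 0.0154 without humanized mice 1, 4 and 6.

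Sod1 made up most of the dismutase sum in both groups, 91.5 ± 0.515% and 93.4 ± 0.827% of the RPKM. Sod3 held 1.36 ± 0.306% in germ-free and 0.540 ± 0.288% in humanized mice, and Sod2 7.15 ± 0.394% and 6.02 ± 0.564%. The length of the gene weighs heavily here, since Sod1 is the shortest of the 3, and on CPM its shares were 64.7% and 70.8%.

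Cat (chr2:103453849-103485160), the catalase of peroxisomes, had 50.3, 46.2, 46.1, 59.2 and 49.7 RPKM in germ-free mice. In humanized mice it had 49.8 to 77.8 with a median of 68.5 RPKM, and mice 2 and 3 lay within the germ-free range. The means were 50.3 ± 5.36 and 65.9 ± 11.97 RPKM, and the LFC of 0.39 (SE 0.12, 95% interval 0.12 to 0.65, FDR = 0.0133) missed the call. Its LFC matched that of Sod1 to 2 decimals, with a larger SE. It passed without germ-free mouse 4 (FDR = 0.00666), humanized mouse 2 (FDR = 0.00691) or humanized mouse 3 (FDR = 6.74e-04).

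**Figure D3:**
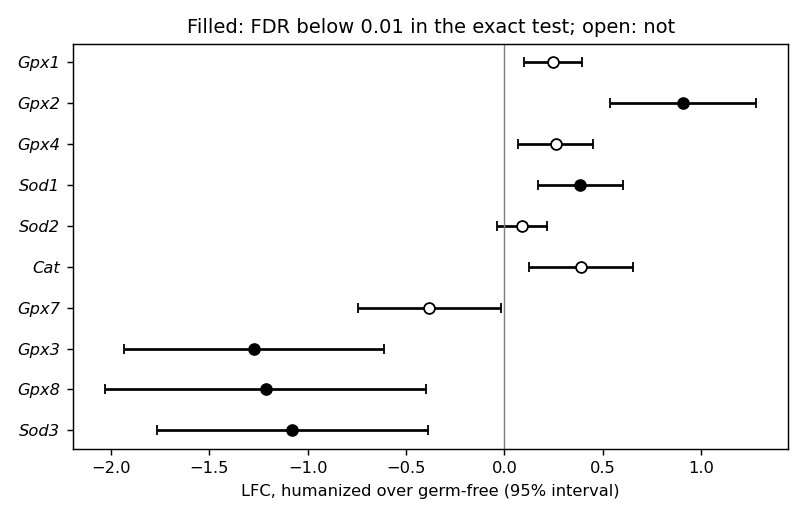
LFC of each gene, humanized over germ-free, with 95% intervals from the quasi-likelihood fit. Filled points passed FDR below 0.01 in the exact test; Gpx2 and Sod1 lie above 0 and Gpx3, Gpx8 and Sod3 below it, and the signs of Gpx1 and Sod2 turned under a scaling that also lowered the median of all genes.

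Ordered by mean level, germ-free mice had Sod1, Gpx1, Gpx4, Gpx2, Gpx3, Cat, Sod2, Gpx8, Sod3 and Gpx7. The ranges of neighbours overlapped for Gpx4 and Gpx2, Gpx2 and Gpx3, Gpx3 and Cat, and Gpx8 and Sod3. In humanized mice the order was Sod1, Gpx1, Gpx2, Gpx4, Cat, Sod2, Gpx3, Gpx8, Sod3 and Gpx7, and neighbours were apart only between Sod1 and Gpx1, Cat and Sod2, and Gpx3 and Gpx8. Gpx3, level with Cat in germ-free mice (50.6 and 50.3 RPKM), came below Sod2 in humanized mice (21.0 and 23.3 RPKM), where those 2 ranges overlapped.

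The 3 genes that fell were low in the mice with low fibroblast markers, and Gpx7 tended the same way. Divided by the fibroblast sum (1000 times RPKM over CPM), Gpx3 was 106 ± 17.8 in germ-free and 109.97 ± 13.2 in humanized mice, a ratio of 1.04. Gpx8 was 11.4 ± 2.05 and 12.04 ± 2.098, a ratio of 1.05. Sod3 was 8.51 ± 0.972 and 10.4 ± 0.848, a ratio of 1.22 (two-sided exact permutation test, p = 0.0108, unadjusted, 1 of 30 ratios computed). The groups overlapped for all 3 on this scale, whereas Gpx7 was apart, at 4.67 ± 0.987 and 11.2 ± 7.26. Mouse 5 set much of that spread, and without it the humanized value of Gpx7 was 8.30 ± 1.32 (n = 5), with the lowest at 6.33 against a germ-free maximum of 6.29. The ratios of Gpx3, Gpx8 and Sod3 without it were 1.02, 1.10 and 1.19, still with overlap. Divided by the epithelial sum, Gpx3 remained apart between the groups, at 4.38 ± 0.550 and 1.598 ± 0.891, as did Gpx8, at 0.476 ± 0.105 and 0.183 ± 0.108, while Sod3 overlapped at a ratio of 0.421. Divided by the endothelial sum, the ratios were 0.785 for Gpx3 (p = 0.0130 in the same exact test), 0.780 for Gpx8 (p = 0.110) and 0.905 for Sod3 (p = 0.424), and the groups overlapped for each. The part of cell composition in these differences was not tested. The ratios were chosen after the values had been seen.

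**Figure D4:**
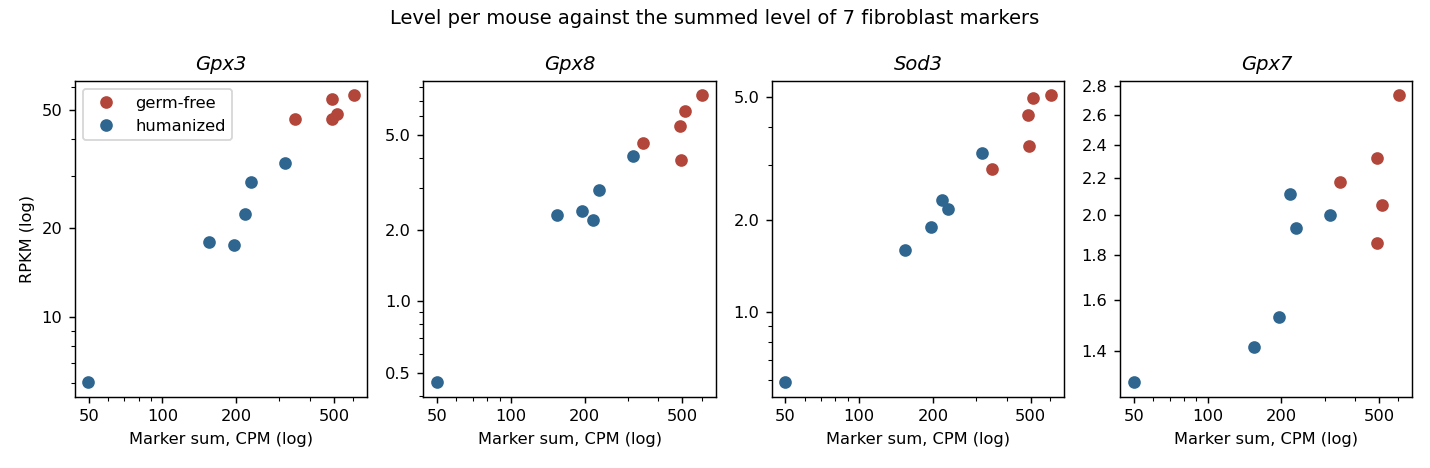
Level of Gpx3, Gpx8, Sod3 and Gpx7 (RPKM, log axes) against the summed CPM of 7 fibroblast markers in the 5 germ-free (red) and 6 humanized (blue) mice. Humanized mouse 5, at 49.9 CPM of markers, is the lowest point in each panel. Each gene, Gpx7 included, tends to be lower where the marker sum is lower. The ratio to that sum overlaps between the groups for the first 3 genes and is apart for Gpx7.

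The epithelial sum gave a different picture for the more abundant genes. Per unit of it Gpx1 was 9.41 ± 0.869 and 9.39 ± 1.11, Gpx4 5.39 ± 0.619 and 5.41 ± 0.665, and Cat 4.37 ± 0.718 and 4.74 ± 0.505 in germ-free and humanized mice. The groups overlapped for each, and the ratios were 0.999, 1.003 and 1.09. Sod2 had a ratio of 0.899. Gpx2 had the highest ratio of the 10 genes on this scale.

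The genes most like each of the 3 members with the lowest FDR were found by the root-mean-square distance between standardized log2 CPM profiles over the 11 mice. For Gpx2 they were Gpx2-ps1 (distance 0.185), the kinase gene Stk38l (0.290, LFC 0.44) and the acyl-CoA thioesterase gene Acot7 (0.295, LFC 0.62). For Gpx3 they were the collagen genes Col5a1 (0.0683, LFC −1.4997) and Col1a2 (0.0803, LFC −1.53), and Syt13 (0.0894, LFC −1.004), which encodes a synaptotagmin. For Sod1 they were the carnitine transporter gene Slc22a5 (0.176, LFC 0.39), Ndufb8 of respiratory complex I (0.199, LFC 0.34) and the adiponectin receptor gene Adipor1 (0.202, LFC 0.28, FDR = 0.0195, not called). The median distance of all genes was 1.34 to 1.36. The distances describe these 11 mice, whose profiles share the difference between the groups.

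The classical glutathione peroxidases depend on a supply of reduced glutathione. Of 18 genes of the glutathione cycle 6 were upregulated and none was downregulated, with a median LFC of 0.24. Beside the counts of this and the later lists, 9.20% of all tested genes were higher and 10.1% lower by the same call. The study itself named the glutathione synthesis genes on these samples, so their direction is not independent evidence. Gclm and Gclc, the subunits of the rate-limiting ligase, had LFC values of 0.49 (FDR = 2.84e-05) and 0.41 (FDR = 0.00328). Gss, glutathione synthetase, had 0.46 (FDR = 1.74e-05), and Gsr, which recycles oxidized glutathione, went from 28.2 ± 1.30 to 35.3 ± 2.80 RPKM (LFC 0.32, FDR = 2.71e-04). Ggt1 and Chac1, which break glutathione down outside and inside the cell, had the highest values, 1.55 (FDR = 3.74e-04) and 1.18 (FDR = 0.00423). The groups overlapped for both, and Chac1 was low, at 0.251 ± 0.0555 and 0.570 ± 0.231 RPKM with 366 reads in all mice together. The count of 6 fell to 2 under total counts, with 3 genes lower, and to 1 under the epithelial scaling. It was 4 without germ-free mouse 3, 4 or 5, and 4 in the quasi-likelihood test, where Gclc (FDR = 0.0153) and Chac1 (FDR = 0.0163) were not called.

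Among 15 genes known as targets of the transcription factor NRF2, 13 were higher and 1 was lower in humanized mice, with a median LFC of 0.49. Gclc, Gclm, Gsr and Slc7a11 also belong to the glutathione cycle list, and the study named Nqo1 and the synthesis genes on these samples. From its glutathione transferase and synthesis genes the study also proposed activation of the NRF2 pathway, which was not tested here. Hmox1, heme oxygenase, went from 1.72 ± 0.102 to 4.45 ± 1.65 RPKM (LFC 1.37, FDR = 1.28e-06). Nqo1, a quinone reductase, had an LFC of 0.73 (FDR = 1.01e-10), and the ferritin genes Fth1 and Ftl1 had 0.68 (FDR = 3.03e-06) and 0.63 (FDR = 1.37e-06). Ephx1, an epoxide hydrolase, was the gene that was lower (LFC −0.47, FDR = 5.19e-04), and Slc7a11, the cystine transporter, had an LFC of −0.17 (FDR = 0.729). The 13 became 9 under total counts and 4 under the epithelial scaling.

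The core of the antioxidant response element, TGACNNNGC, was searched on both strands of the RefSeq promoter windows (GRCm38.p6, 250 bases before to 50 after each start). It lay in 1 of the 9 members with a window, Sod1, against 14.0% of 27025 genes of the table, and in 5 of 12 matched NRF2 targets (41.7%). The 33 bases around the core are shown on the gene's strand, with the core in capitals, to set that of Sod1 beside those of 3 NRF2 targets. All of them carry it in reverse orientation, and it starts 56 bases before the start of Sod1 (chr16:90220694-90220726).
Sod1: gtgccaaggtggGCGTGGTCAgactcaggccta
Gclm: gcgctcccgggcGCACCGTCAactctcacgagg
Txnrd1: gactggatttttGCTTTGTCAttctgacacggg
Prdx1: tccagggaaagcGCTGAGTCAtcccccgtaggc

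The other stretches are chr3:122245411-122245443 for Gclm, chr10:82859102-82859134 for Txnrd1 and chr4:116685454-116685486 for Prdx1, all on the plus strand. Sod1, with the core, and Gpx2, without it in its window, both rose, and a match in these letters is a description only.

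Against 9.20% of all tested genes, 1 of 9 genes for selenoprotein synthesis was upregulated, Sephs2, which makes the selenium donor. It went from 63.0 ± 1.75 to 75.4 ± 7.85 RPKM (LFC 0.26, FDR = 0.00881), and the median LFC of the list was 0.09. No gene of the list was called in edgeR's quasi-likelihood test (Sephs2 at FDR 0.0155) or in 8 of the 11 fits that left out 1 mouse, the exceptions being those without humanized mouse 2, 3 or 6. The same held under upper-quartile, total-count and epithelial scaling, with no filter, and with at least 10 counts in every mouse. Of 18 other selenoprotein genes tested, 3 were higher and 3 lower, with a median LFC of 0.16. Dio1 and Dio2, the thyroid hormone deiodinases, lay at opposite ends, with LFC 1.37 (FDR = 3.67e-19) and −1.88 (FDR = 9.53e-05), the latter at only 0.117 ± 0.0708 RPKM in germ-free mice. Txnrd1, cytosolic thioredoxin reductase, had 0.41 (FDR = 2.37e-06) and Selenok (Selk in the table) 0.32 (FDR = 2.38e-04). Selenon (Sepn1 in the table) had −0.81 (FDR = 0.00505) and Txnrd3 −0.57 (FDR = 0.00322). The 3 lower genes became 1 without germ-free mouse 3 or 5 or humanized mouse 1 or 6, and 1 in the quasi-likelihood test. Under the epithelial scaling 1 was higher and 5 were lower, and under total counts 2 and 4.

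The metal supply of the dismutases was covered by 8 genes, of which 2 were higher and 1 lower (median LFC 0.05). Ccs, the chaperone that loads copper into SOD1, had 41.4 ± 1.83 and 46.8 ± 6.32 RPKM and did not pass the test (LFC 0.17, SE 0.09, FDR = 0.193). Slc31a1, the copper importer, was higher (LFC 0.43, FDR = 9.58e-04), which the study had already reported on these samples. The manganese exporter gene Slc30a10 went from 1.86 ± 0.768 to 10.7 ± 2.90 RPKM (LFC 2.52, FDR = 7.89e-17). Slc39a14, which imports manganese and zinc, was lower (LFC −0.51, FDR = 2.43e-10). Under total counts and the epithelial scaling 1 gene was higher and 1 lower.

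Catalase is imported into peroxisomes, and of 13 peroxisome import genes 2 were higher, Pex6 (LFC 0.34, FDR = 0.00627) and Pex14 (LFC 0.28, FDR = 0.00978), with a median LFC of 0.11. In the quasi-likelihood test their FDR was 0.0179 and 0.0124. The count of 2 became 0 without germ-free mouse 1, 4 or 5 or humanized mouse 1, 4 or 6, and 1 without germ-free mouse 2 or 3 or humanized mouse 3 or 5. It was also 0 under upper-quartile, total-count and epithelial scaling, with no filter and with at least 10 counts in every mouse, and 3 without humanized mouse 2. Of 8 lipid peroxidation genes, which surround the function of GPX4, 2 were higher and none was lower, with a median LFC of −0.11. Gch1, needed to make the antioxidant tetrahydrobiopterin, had an LFC of 1.11 (FDR = 1.11e-09) and Lpcat3, a phospholipid acyltransferase, 0.39 (FDR = 4.46e-04). Under total counts 1 gene of this list was higher and 1 lower, and under the epithelial scaling 1 was higher.

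**Figure D5:**
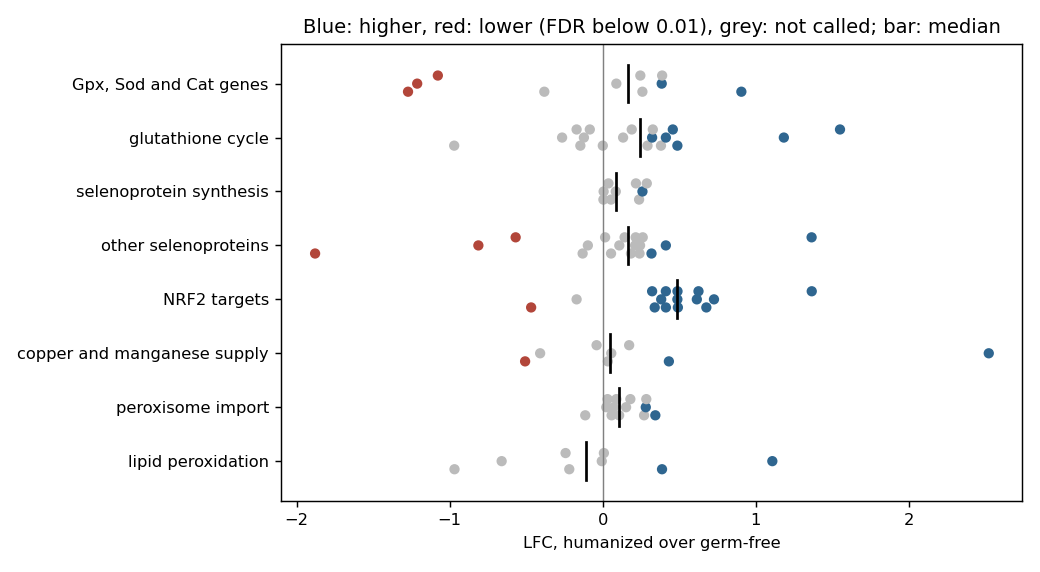
LFC of every tested gene of each list, 1 point per gene, with the list's median as a black bar. Blue and red points passed FDR below 0.01; the NRF2 targets have 13 of 15 genes higher, and the 10 Gpx, Sod and Cat genes reach from −1.27 to 0.91.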

How the data were processed

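Polyadenylated RNA of 11 colons was sequenced with 101 bp paired-end reads. Per the labels and methods, the authors aligned them to mm10 with TopHat2 2.1.0 and Bowtie2 2.2.3, counted reads per gene with featureCounts (Subread 1.4.6-p5), and deposited these counts without normalization, with a gene length whose derivation is not given in the sources used here. Use of strand in counting is not stated.

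Groups were taken from the sample labels. Counts were filtered by group with filterByExpr (at least 10 counts, 15 in total). Its proportion setting of 0.7 applies only to groups of more than 10 and had no effect here. Counts were then normalized with TMM and compared with the exact test of edgeR 4.0.16 (R 4.3.3) with Benjamini–Hochberg adjustment over 19863 genes. Standard errors and intervals came from the quasi-likelihood fit. No library was left out, and no pair of libraries of the same group agreed within sampling noise. Counting error weighs most on genes with few reads, such as Gpx7 with 67 to 220 per mouse. The script was tested on simulated data. Sequences were read with Biopython 1.88.

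Members and gene lists were chosen with earlier results of these data known. The text names all members, up to 4 called genes of each pathway list with the largest absolute LFC, Gsr, Ccs and Sephs2, and 3 genes nearest in profile to each of 3 members. Gclc, Fntb, Cdc20b, Txnrd1, Selenok, Ephx1, Slc7a11, Prdx1 and the 3 epithelial markers were named after their values were seen. Alternatives were the quasi-likelihood test, DESeq2 1.42.0, other normalizations, filters and thresholds, leaving out mice, and a replicate block. Protein sequences were not used here.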

Additional observations from a re-analysis of the deposited data

Results flagged for a closer look

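Of 20 sets of values tested, each 1 gene in 1 group, 1 held a mouse far from the others. Gpx4 in humanized mouse 5 was 95.2 RPKM, with 74.3 RPKM in the mouse after it. Chance flags about 1 in 20 sets. The same mouse had the lowest fibroblast marker sum, 49.9 CPM, and whether the values are connected was not tested.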

How the results depend on the processing

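Against 2 members higher and 3 lower, the quasi-likelihood test called 1 and 1, DESeq2 3 higher, upper-quartile normalization 2 lower, total counts and epithelial scaling 1 higher each, no filter 2 lower, and FDR below 0.05 called 5 higher. The number of all genes called moved too, from 3826 to 2699 in the quasi-likelihood test and 5685 at FDR below 0.05. It was 4367 in DESeq2, 3732 under upper-quartile normalization, 4382 under total counts and 3822 under epithelial scaling. With no filter it was 3531 of 30533 genes. Leaving out 1 mouse gave 1 to 4 higher and 1 to 3 lower, with 2880 to 4411 of all genes called. Leaving out humanized mice 5 and 6 together, chosen after seeing the data, gave 2 and 3. At FDR below 0.01 Gpx3 kept its call in 21 of 22 alternatives, Sod1 in 16, Sod3 in 14 and Gpx8 in 9. The sign turned for Sod2, to −0.10 under total counts and −0.16 under epithelial scaling, and for Gpx1 to −0.0037 under epithelial scaling. These scalings shift all genes, and relative to the median of all genes Sod2 was 0.077 and 0.080 (0.081 under TMM) and Gpx1 0.232 under epithelial scaling (0.238 under TMM).

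With the replicate number as a block (mice 1 to 5 of each group, quasi-likelihood test) 1 member was called higher and 0 lower, among 1002 genes called in all, with Gpx3 at FDR 0.0205 and Sod1 at 0.0249. Mice with the same number did not deviate together, with correlations of −0.133 to 0.0910, and only number 3 correlated best with its own number, so the numbers do not pair the mice. Depth was low for Gpx7, with 67 to 220 reads per mouse, and Gpx8, with 22 to 467.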
